A study of Mus musculus with 12 samples.

Results

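Voluntary wheel running was compared with sedentary housing in one muscle of control mice, the extensor digitorum longus (EDL), which lifts the toes and is made of fast fibers. All 6 RNA-seq libraries that the labels name Ctrl were used, 3 trained and 3 sedentary, out of 12 in the series. They are called WT, the study's name for the group, on the word of these labels. Levels are in FPKM, fragments per kilobase of transcript scaled for depth. Of 17752 genes in the table, 12744 averaged 0.5 FPKM or more over the 12 libraries and were tested. The study asked what the loss of RIP140, a nuclear receptor corepressor encoded by Nrip1, does to muscle and how endurance training bears on it. The WT pair compares trained with sedentary libraries among the labelled controls.

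Per the study's methods the mice were males, 8 weeks old at the start, that had a running wheel for 8 weeks or had none. Mice that ran too little were taken out of the study, so running cannot be told apart from that selection here. The wheels were removed days before any endpoint, so by these methods the muscle was not taken soon after running. The WT mice were littermates that carried the floxed Nrip1 allele without Cre. Floxed animals were crossed with C57BL/6JN mice whose Cre is driven by the muscle creatine kinase promoter, so the substrain background may be mixed. The other 6 libraries came from mice labelled Nrip1KO, written here as labelled strNrip1-/-, and were likewise sedentary or trained. The labels do not tie a library to 1 animal, so p-values measure the spread between these libraries, which may be partly technical.

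Running with little load makes a muscle contract often and for long. Endurance training is known to favor oxidative fibers, capillary growth, mitochondrial enzymes and fatty acid use, and exercised muscle also turns over its collagen matrix and its glycogen stores. Glucocorticoid hormones act in muscle through a nuclear receptor that raises a known group of genes for protein breakdown, fuel switching and growth restraint.

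The 6 libraries corresponded to 19.9 to 29.0 M fragments (M, 1e6), judged from the spacing of low FPKM values. On a gene of 2 kb, 3 fragments, taken as the lowest level told from 0, were worth 0.0619 to 0.0903 FPKM, a limit that covers counting error only. Skeletal muscle identity was clear, with Acta1, skeletal actin, at 18750, 19520 and 18040 FPKM in the sedentary and 19590, 25220 and 19050 FPKM in the trained libraries, and all 12 skeletal muscle fiber markers were measured. Nrip1 was at 3.60, 2.55 and 3.84 FPKM in sedentary and 2.53, 4.76 and 3.56 FPKM in trained WT libraries, groups that overlapped. It stood at 15.5, 16.3 and 14.9 FPKM in sedentary and 20.7, 14.9 and 16.6 FPKM in trained libraries labelled strNrip1-/-, so the targeted gene goes against those labels. A value for the whole gene does not tell a full transcript from a transcript that lacks the deleted part, and a doubt about the labels would hold for the WT libraries as well. The mitochondrial share given next separated the sedentary libraries by label, at 51.2 to 52.8% of the FPKM in those labelled strNrip1-/- and 42.2 to 44.6% in WT. It did not separate the trained libraries, at 45.7, 43.7 and 45.5% in those labelled strNrip1-/- and 47.3, 46.8 and 43.8% in WT. Whether the genotype labels are right was not tested. Transcripts of the 13 genes of the mitochondrial genome took 43.7 ± 1.35% of the FPKM in sedentary and 46.0 ± 1.92% in trained WT libraries (SD, n = 3), and the groups overlapped through trained replicate 3. The exact permutation test gave a two-sided p = 0.3, where 3 libraries against 3 allow no p below 0.1. In a principal component analysis of the 6 libraries over their 500 most variable genes, PC1 held 39.4% of the variance and PC2 21.1%. The sedentary libraries lay at −8.01, −5.65 and −19.3 on PC1 and the trained libraries at −0.0770, 25.7 and 7.34. Trained replicate 1 stood apart on PC2 at −22.1, against 1.79 to 10.3 for the others, and trained replicate 2 was the farthest on PC1. Both libraries recur below, and the values without each are given where they matter.

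Single genes differed between trained and sedentary libraries, but none passed the adjusted threshold. With limma and Benjamini-Hochberg adjustment over all genes, 0 of 12744 genes had an adjusted p under 0.05 and a fold change above 1.2, which is 0% called. The lowest adjusted p was 0.0593. An unadjusted p under 0.05 was reached by 1061 genes (8.33% of those tested), of which 515 were higher in trained muscle (4.04%) and 546 lower (4.28%). In 989 genes (7.76%) every trained library lay above every sedentary one, and in 828 genes (6.5%) every one lay below. Against these shares, 1 member of a list of 20 to 30 genes past the unadjusted threshold in 1 direction, or 2 members without overlap, is near the background. Rescaling each library to the same FPKM sum left 1021 genes under the unadjusted threshold, with 25.1% of them higher in place of 48.5%. That rescaling moved the median log2 fold change of all genes from 0.0017 to −0.04.

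The number of genes passing the adjusted threshold depended on single libraries. Without WT trained replicate 1 it was 30, without WT trained replicate 3 it was 4, without WT sedentary replicate 1 it was 1 (Nr4a2), and without any of the other 3 libraries it was 0. Requiring a mean of at least 5 FPKM gave 8 genes, Cebpd, Col1a1, Col1a2, Ddit4, Kera, Nfkbia, Rhob and Tmem205. Library weights estimated from the data gave 11, the same 8 with Apobec1, Birc3 and Lrrc8a. Since no gene was called, "higher" and "lower" below describe values, and genes outside the pair of highest level in each list and a few fixed names were chosen after their values were seen. The lists themselves were chosen with earlier results of these data known, so their counts and medians are description only.

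**Figure D1:**
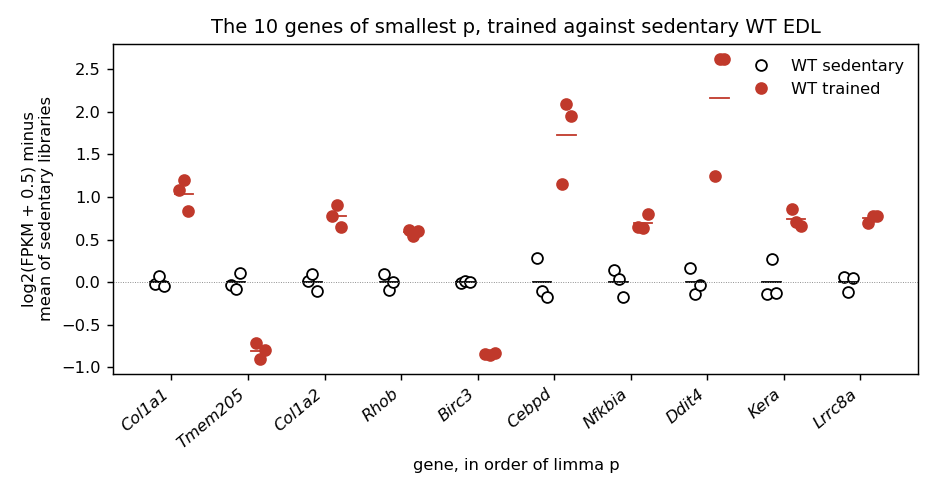
The 10 genes of smallest p, with each library's log2(FPKM + 0.5) minus the mean of the 3 sedentary libraries on the vertical axis. Open points are sedentary and filled points trained WT libraries, and short bars are group means. Trained and sedentary points do not overlap in any of the 10 genes, with mean differences from −0.84 (Birc3) to 2.16 (Ddit4).

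The 10 genes of smallest p were type I collagen genes, stress-responsive regulators and a few others. Col1a1 (ENSMUSG00000001506, chr11:94936224-94953042, GRCm38), which encodes the alpha-1 chain of type I collagen, was at 56.97, 60.4 and 55.7 FPKM in sedentary and 123, 133 and 103 FPKM in trained muscle. Col1a2 (ENSMUSG00000029661, chr6:4504814-4541544), for the partner chain, was at 91.5, 97.3 and 84.7 FPKM against 156, 171 and 143 FPKM. Both chains were thus higher in every trained library, the log2 fold changes being 1.04 (SE 0.131) and 0.78 (SE 0.107) on the log2(FPKM + 0.5) scale (limma adjusted p 0.0593 for each). Rhob (ENSMUSG00000054364), a small GTPase, was at 22.6, 19.8 and 21.2 FPKM against 32.6, 30.9 and 32.4 FPKM, and Lrrc8a, a subunit of the volume-regulated anion channel, at 2.81, 2.44 and 2.77 FPKM against 4.64, 4.94 and 4.93 FPKM. Kera, for keratocan, a small proteoglycan of collagenous tissue, was at 6.56, 8.88 and 6.63 FPKM against 13.6, 12.2 and 11.8 FPKM. The log2 fold changes of these 3 were 0.59, 0.75 and 0.74, and their limma adjusted p 0.0593, 0.0866 and 0.0866. Only 2 of the 10 were lower in trained muscle. Tmem205, a transmembrane protein gene, was at 12.6, 12.2 and 14.0 FPKM against 7.70, 6.71 and 7.21 FPKM (log2 fold change −0.80, limma adjusted p 0.0593). Birc3, an inhibitor of apoptosis that acts in NF-kB signalling, was at 5.68, 5.79 and 5.72 FPKM against 2.97, 2.94 and 3.01 FPKM (log2 fold change −0.84, limma adjusted p 0.0637). Its spread within each group was the narrowest of the 10, with SDs of 0.0541 and 0.0386 FPKM.

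The remaining 3 of the 10 were Ddit4, Cebpd and Nfkbia, which also belong to the list of glucocorticoid-responsive genes. Ddit4 (ENSMUSG00000020108, chr10:59949669-59951834), an inhibitor of the growth kinase mTORC1 also called REDD1, was at 11.7, 9.34 and 10.1 FPKM in sedentary and 25.3, 66.1 and 66.1 FPKM in trained libraries. Its log2 fold change of 2.16 (SE 0.344) was the largest of the 10, and trained replicate 1 lay well below the other trained libraries. Cebpd, a C/EBP family transcription factor, was at 2.69, 1.959 and 1.83 FPKM against 5.37, 10.7 and 9.68 FPKM, a log2 fold change of 1.73 (SE 0.264). Nfkbia, the inhibitor of NF-kB, was at 16.6, 15.4 and 13.2 FPKM against 23.8, 23.7 and 26.6 FPKM, a log2 fold change of 0.70 (SE 0.109). The limma adjusted p of these genes was 0.0866, 0.0820 and 0.0849. Over the other settings the adjusted p of Col1a1 ran from 0.0204 to 0.314, that of Tmem205 from 0.0279 to 0.314 and that of Ddit4 from 0.00428 to 0.358.

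Genes of the collagen matrix were higher in trained muscle in 27 of the 32 measured. All 32 listed genes passed the filter, 11 of them were higher at an unadjusted p under 0.05 and 0 lower, against 4.04% and 4.28% of all genes. In 12 every trained library lay above every sedentary one, beside 7.76% of all genes. The median log2 fold change of the list was 0.22, beside 0.0017 over all genes tested, and it ran from 0.16 to 0.23 over the other settings tried with all libraries. Leaving out 1 library it was 0.14 (without WT trained replicate 2) to 0.30 (without WT trained replicate 1). Among its most abundant members, Sparc, a collagen-binding matrix protein, was at 162, 172 and 153 FPKM in sedentary and 209.7, 246 and 199.6 FPKM in trained libraries (log2 fold change 0.42, limma adjusted p 0.294, 0.0329 to 0.679 over the other settings). Dcn, for the proteoglycan decorin, was at 219, 246 and 232 FPKM against 214, 223 and 278 FPKM, groups that overlapped. Other collagen chains differed less than those of type I. Col3a1, the type III chain, was at 42.7, 36.9 and 31.7 FPKM against 39.2, 61.5 and 49.1 FPKM, with trained replicate 1 inside the sedentary range. Col5a2, a type V chain that starts collagen fibrils, was at 3.89, 3.42 and 3.17 FPKM against 4.21, 5.04 and 4.76 FPKM, and Col12a1, a fibril-associated chain, at 3.03, 3.29 and 3.57 FPKM against 3.97, 5.34 and 5.28 FPKM. Neither pair of groups overlapped, the log2 fold changes being 0.37 and 0.49 (limma adjusted p 0.492 and 0.450).

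Enzymes and regulators around the matrix were also among the higher genes. Loxl2, a collagen cross-linking enzyme, was at 3.96, 4.10 and 4.03 FPKM in sedentary and 5.07, 5.50 and 4.74 FPKM in trained libraries. Timp1, an inhibitor of matrix metalloproteinases, was low in both groups, at 0.259, 0.403 and 0.279 FPKM against 0.987, 0.899 and 1.51 FPKM, and Tnc, the matrix glycoprotein tenascin C, was at 2.19, 2.07 and 1.69 FPKM against 2.72, 2.23 and 2.94 FPKM. In all 3 the groups did not overlap, the log2 fold changes being 0.31, 0.99 and 0.33 (limma adjusted p 0.529, 0.493 and 0.529). Outside the list, Ccn2, a connective tissue growth factor, was at 13.5, 15.6 and 10.4 FPKM against 18.4, 30.2 and 26.1 FPKM, and Smad3, which carries the TGF-beta signal to the nucleus, at 10.2, 8.33 and 8.85 FPKM against 14.8, 11.9 and 12.3 FPKM. Their log2 fold changes were 0.89 and 0.49 (limma adjusted p 0.404 and 0.402). Markers of the cells that make such matrix are given beside it. Of 12 fibroblast markers, which share Col1a1, Col3a1, Dcn, Fbn1 and Lum with the matrix list, 2 were higher at an unadjusted p under 0.05 and the median was 0.12. That threshold was passed upward by 4.04% of all genes. Of 10 tendon markers, 3 were higher and the median was 0.27, with Tnmd, for tenomodulin, at 9.66, 16.1 and 13.2 FPKM against 18.2, 19.8 and 19.4 FPKM. The summed FPKM of the tendon list was 292 to 372 in sedentary and 351 to 441 in trained libraries. Fewer cells of a type and less RNA per cell cannot be told apart in whole muscle, and the part of attached tendon in the collagen values was not tested.

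**Figure D2:**
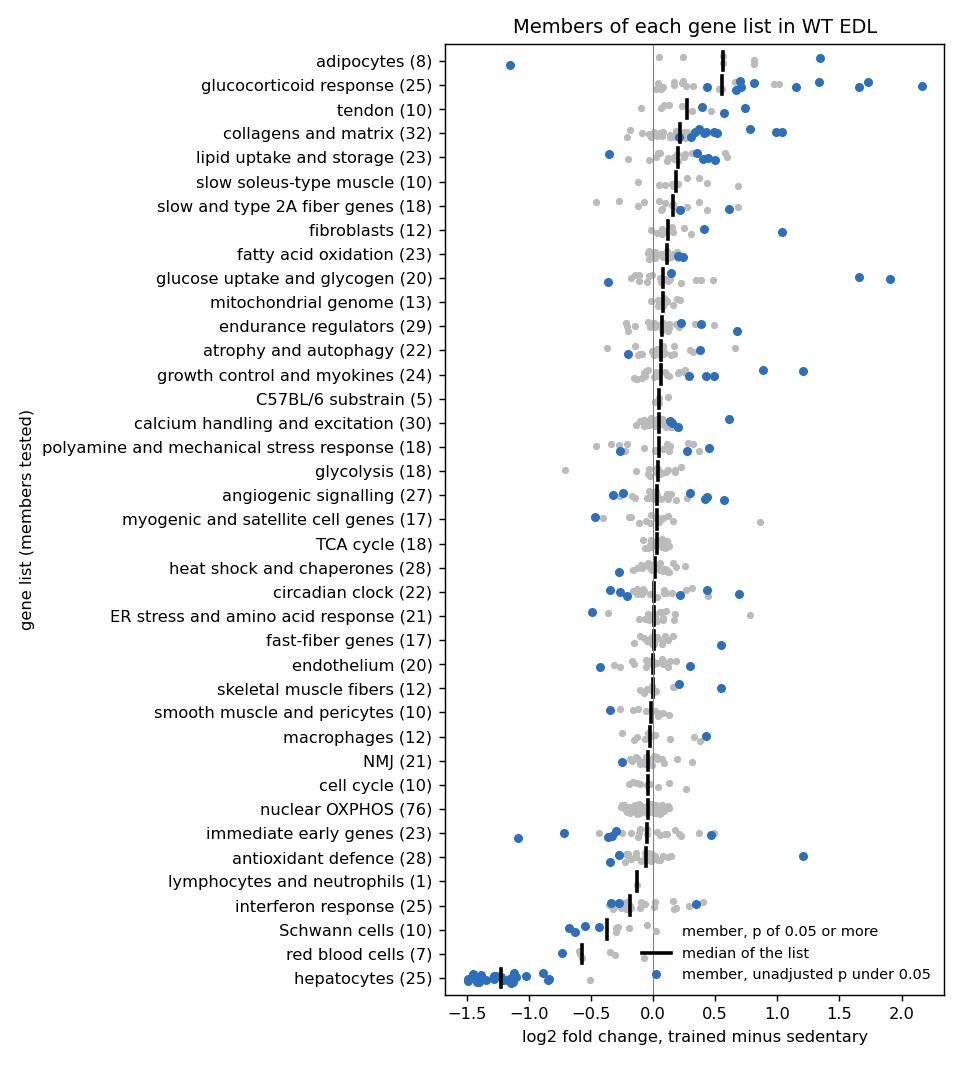
Log2 fold change of each tested member (points) of 39 gene lists, trained minus sedentary WT libraries on the log2(FPKM + 0.5) scale, with the list's median as a black bar and the number of members tested in parentheses. Blue points had an unadjusted p under 0.05. The glucocorticoid (median 0.56), adipocyte (0.56), tendon (0.27) and matrix lists (0.22) lie to the right, and Schwann cell (−0.37), red blood cell (−0.57) and hepatocyte genes (−1.22) to the left.

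All 25 glucocorticoid-responsive genes had a log2 fold change above 0, in a list chosen with earlier results of these data known. At an unadjusted p under 0.05, 10 of the 25 were higher and 0 lower, beside 4.04% and 4.28% of all genes. In 9 the trained libraries lay wholly above sedentary ones, beside 7.76% of all genes. The median was 0.56, beside 0.0017 over all genes. The summed FPKM of the list was 822, 719.8 and 819 in sedentary and 945, 1798 and 1322 in trained libraries. All trained sums lay above all sedentary ones, with trained replicate 1 the nearest to them. Glul, glutamine synthetase, was at 198, 198 and 254 FPKM against 185, 550 and 313 FPKM, and its groups overlapped through trained replicate 1. Tsc22d3, also called GILZ and a classical hormone target, was at 123, 98.8 and 109.5 FPKM against 141, 188 and 205 FPKM, groups that did not overlap (log2 fold change 0.67, limma adjusted p 0.404, 0.102 to 0.679 over the other settings). The median over the list was 0.83 without WT trained replicate 1 and 0.32 without WT trained replicate 2.

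Trained replicate 2 was the highest library for several of these genes. Fkbp5, a co-chaperone of the hormone receptor, was at 9.10, 10.8 and 9.49 FPKM in sedentary and 9.54, 49.3 and 15.95 FPKM in trained libraries. Zbtb16, a transcription factor, was at 9.70, 7.82 and 10.47 FPKM against 13.5, 47.7 and 14.7 FPKM. The metallothionein gene Mt2 was at 14.4, 16.3 and 16.7 FPKM against 15.2, 77.7 and 28.2 FPKM. In Fkbp5 and Mt2, trained replicate 1 was within the sedentary range. In Sgk1, Arrdc2 and Per1 every trained library lay above every sedentary one, trained replicate 1 being the lowest trained library in each. Sgk1, a kinase of ion transport, was at 94.4, 60.8 and 64.6 FPKM against 115, 127 and 139 FPKM (log2 fold change 0.81, limma adjusted p 0.404, 0.235 to 0.690 over the other settings), and Arrdc2, an arrestin-domain adaptor, at 30.5, 20.2 and 19.6 FPKM against 38.3, 63.8 and 82.6 FPKM (log2 fold change 1.34, limma adjusted p 0.404, 0.130 to 0.702 over the other settings). Per1, which belongs to the clock as well, was at 20.7, 19.6 and 19.8 FPKM against 23.3, 30.2 and 28.7 FPKM. The ubiquitin ligase genes of muscle wasting in the same list showed little difference, with Trim63 at 102, 97.0 and 96.2 FPKM against 115, 101 and 117 FPKM and Fbxo32 at 16.9, 14.2 and 14.3 FPKM against 19.0, 13.04 and 16.6 FPKM.

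**Figure D3:**
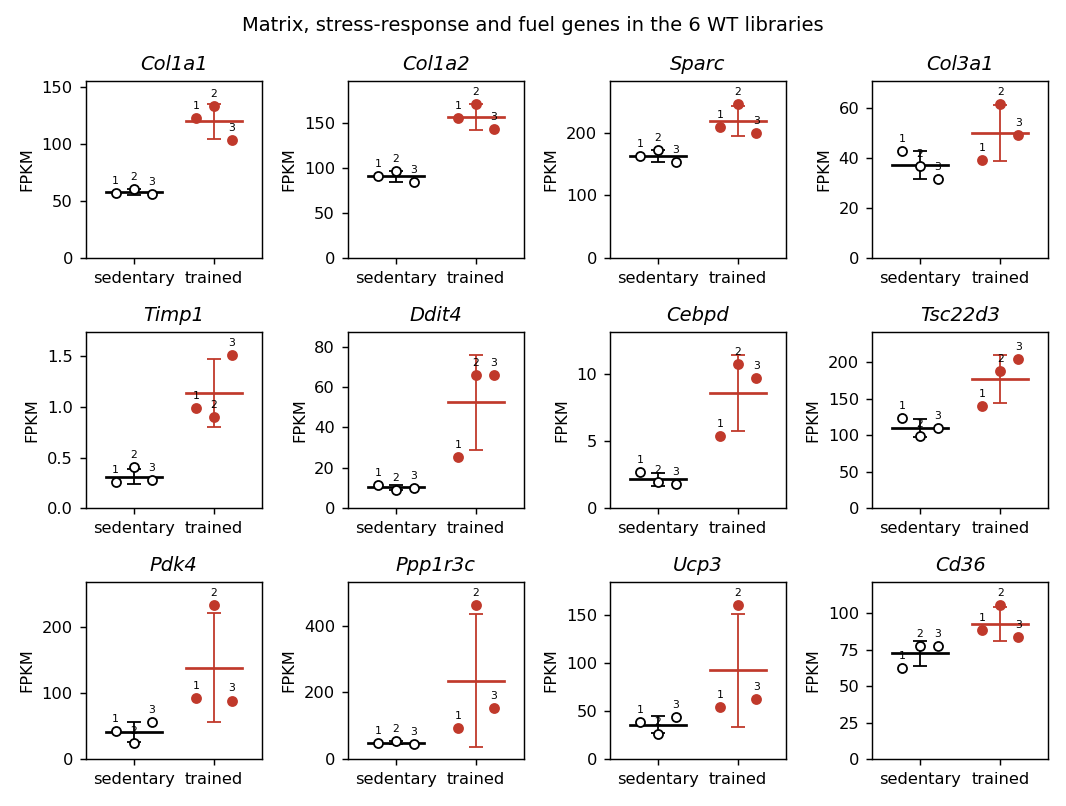
FPKM of 12 genes in each of the 6 WT libraries, with replicate numbers beside the points, group means as horizontal bars and SD (n = 3) as error bars. Col1a1 and Col1a2 separate the groups with little spread, while trained replicate 2 is highest for Pdk4 (234 FPKM), Ppp1r3c (462 FPKM) and Ucp3 (161 FPKM).

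Promoter sequences were read for genes higher in trained muscle to show which of these control motifs lie near their starts. The RefSeq promoter table (GRCm38.p6, 250 bases before to 50 after each start) matched 9617 of the 12744 tested genes. A CRE, the cAMP response element TGACGTCA, was found on either strand in 3.50% of all matched promoters, in 3.17% of the 379 matched genes that were higher at an unadjusted p under 0.05 and in 1.54% of the 390 that were lower. An E-box, CACGTG, which clock factors can bind, was found in 11.7%, 11.1% and 8.46%. The D-box TTATGTAA was found in 0.634%, 0.528% and 1.026%, the heat shock element core GAANNTTC in 7.08%, 5.80% and 7.44%, and the ERR element TCAAGGTCA in 0.333%, 0.528% and 0.513%. The shares among higher genes were thus close to those of all promoters. The windows below, 26 bases each on the gene's strand, show a CRE of 2 higher genes and an E-box of 3, with the motif in capitals.
Slc25a25, chr2:32424200-32424225, minus strand: tgcaagcagTGACGTCAgtcctgatc
Lrrc8a, chr2:30237652-30237677, plus strand: gtccggccgTGACGTCActtccgggg
Per1, chr11:69098773-69098798, plus strand: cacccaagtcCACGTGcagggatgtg
Ppp1r3c, chr19:36736693-36736718, minus strand: gggaccggttCACGTGatctggcttt
Sgk1, chr10:21993640-21993665, plus strand: tcctCACGTGttcttggcatggctag
The first motif base lies 150, 108, 166, 104 and 246 bases before the RefSeq start that the table uses for the respective gene, which need not be the end of the GENCODE gene whose coordinates are given elsewhere. A match describes the letters in the window and is not evidence of binding.

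Genes of glucose and glycogen handling differed most at the regulators of glycogen synthesis and pyruvate use. Of 20 listed and measured, 3 were higher and 1 lower at an unadjusted p under 0.05, 7 were wholly above and 2 wholly below, and the median was 0.08. Of all genes 4.04% and 4.28% passed the unadjusted threshold in the 2 directions and 7.76% and 6.5% did not overlap, so the counts of lower members are near the background. Ppp1r3c (ENSMUSG00000067279, chr19:36731731-36736653), a subunit that targets protein phosphatase to glycogen and activates its synthesis, was at 48.3, 53.7 and 45.7 FPKM in sedentary and 91.6, 462 and 152 FPKM in trained libraries. Its log2 fold change was 1.91 (SE 0.492, limma adjusted p 0.402, 0.0594 to 0.679 over the other settings). Gys1, muscle glycogen synthase, was at 133, 134 and 135 FPKM against 148, 155 and 142 FPKM, a small difference with little spread (log2 fold change 0.15, limma adjusted p 0.492). Pdk4, which inhibits pyruvate dehydrogenase and spares glucose, was at 43.0, 24.8 and 55.8 FPKM against 92.2, 234 and 88.7 FPKM (log2 fold change 1.66, limma adjusted p 0.440, 0.274 to 0.711 over the other settings). Slc2a1, the basal glucose transporter GLUT1, was lower, at 5.23, 5.17 and 4.65 FPKM against 3.03, 4.49 and 3.96 FPKM (log2 fold change −0.36, limma adjusted p 0.524). The insulin-responsive transporter gene Slc2a4 was at 255, 248 and 247 FPKM against 251, 283 and 247 FPKM and hexokinase 2, Hk2, at 91.2, 81.5 and 95.2 FPKM against 88.7, 107 and 92.4 FPKM, both overlapping. None of 18 glycolysis genes passed the unadjusted threshold in either direction, their median being 0.04, and Gapdh was at 6580, 7081 and 6264 FPKM against 6594, 8212 and 6293 FPKM.

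Genes for taking up and storing fatty acids were mostly higher in trained muscle, and those for burning them were so by smaller amounts. At an unadjusted p under 0.05, 4.04% of all genes were higher and 4.28% lower, and 7.76% had trained libraries wholly above. In the uptake and storage list 23 of 24 genes passed the filter, 4 were higher and 1 lower at that threshold, 20 had a log2 fold change above 0, and the median was 0.20. Adipocyte markers, which share no gene with this list, had a median of 0.56, with 7 of 8 tested above 0, and a summed FPKM of 191 to 227 in sedentary and 214 to 257 in trained libraries. The sums overlapped, while the markers' median log2 level, each gene centered on its WT mean, was higher in every trained than in every sedentary library. Their part in the list's values was not tested. Cd36, a fatty acid transporter, was at 62.6, 77.7 and 77.7 FPKM against 88.4, 106 and 84.1 FPKM, and Lpl, which frees fatty acids from circulating lipoproteins, at 81.2, 109.7 and 115 FPKM against 132, 159 and 123 FPKM. The groups did not overlap in either, the log2 fold changes being 0.35 and 0.44 (limma adjusted p 0.464 and 0.492). The lipid droplet coat gene Plin3 was at 11.5, 13.1 and 11.7 FPKM against 15.2, 25.1 and 13.5 FPKM, and the lipase gene Lipe at 7.04, 8.68 and 6.97 FPKM against 8.95, 11.8 and 9.82 FPKM. Fabp3, the most abundant of the list and a fatty acid carrier of the cytosol, was at 326, 409.6 and 362 FPKM against 423, 532 and 362 FPKM, which overlapped. Srebf1, which drives lipid synthesis, was the 1 lower member, at 23.4, 21.3 and 20.1 FPKM against 17.2, 14.4 and 18.9 FPKM (log2 fold change −0.36, limma adjusted p 0.489). In the fatty acid oxidation list all 23 genes were measured, 19 were above 0, 2 were higher at an unadjusted p under 0.05 (Cpt2 and Acadl), 6 had groups wholly apart, and the median was 0.11, or 0.04 without WT trained replicate 2. Cpt2, which hands fatty acids to the mitochondrial matrix, was at 22.6, 24.5 and 24.6 FPKM against 26.98, 29.4 and 26.4 FPKM, and its partner Cpt1b at 122, 125 and 121 FPKM against 129, 138 and 131 FPKM, both without overlap but the log2 fold changes being only 0.20 and 0.11 (limma adjusted p 0.518 and 0.715).

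No difference was detected in single genes of the respiratory chain. Of 76 nuclear OXPHOS genes, all measured, 0 passed an unadjusted p of 0.05 in either direction, 54 had a log2 fold change below 0, and the median was −0.04. Among the 13 protein genes of mitochondrial DNA, 0 passed the unadjusted threshold, 12 lay above 0 and the median was 0.08. Atp5b, of ATP synthase, was at 2064, 2150 and 2009 FPKM in sedentary and 2090, 2504 and 2024 FPKM in trained libraries. Citrate synthase, Cs, a common measure of mitochondrial content, was at 286, 295 and 291 FPKM against 306, 345 and 294 FPKM. Cytochrome c, Cycs, was at 97.5, 113 and 101 FPKM against 106, 139.6 and 96.1 FPKM, and Tfam, which packs and transcribes mitochondrial DNA, at 23.7, 22.3 and 22.5 FPKM against 23.0, 23.9 and 23.0 FPKM. Trained and sedentary libraries overlapped in all 4, and trained replicate 2 was the highest library in each of them. None of 18 TCA cycle genes passed the unadjusted threshold, and their median was 0.03.

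Among 29 endurance regulators measured, 3 were higher and 0 lower at an unadjusted p under 0.05, beside 4.04% and 4.28% of all genes. Trained libraries lay wholly above sedentary ones in 6, beside 7.76% of all genes, and the median was 0.07. Esrrg, the orphan receptor ERR-gamma that drives oxidative genes, was at 3.60, 2.91 and 3.12 FPKM in sedentary and 5.68, 5.87 and 4.78 FPKM in trained libraries (log2 fold change 0.68, SE 0.128, limma adjusted p 0.201, 0.126 to 0.679 over the other settings). Ppargc1a, for the coactivator PGC-1alpha, was at 4.06, 3.76 and 4.38 FPKM against 5.03, 6.75 and 4.76 FPKM (log2 fold change 0.38, limma adjusted p 0.464, 0.318 to 0.728 over the other settings). Both had every trained library above every sedentary one. Mef2c, a muscle transcription factor and the most abundant member, was at 89.5, 81.1 and 93.6 FPKM against 107, 92.3 and 109 FPKM, which overlapped. Esrra, for ERR-alpha, was at 70.9, 71.3 and 69.9 FPKM against 70.9, 74.5 and 65.1 FPKM. Slc25a25, a calcium-sensitive carrier that brings ATP-Mg into mitochondria, was at 21.6, 11.7 and 17.1 FPKM against 51.5, 42.9 and 50.4 FPKM (log2 fold change 1.53, limma adjusted p 0.402, 0.155 to 0.679 over the other settings), and the uncoupling protein gene Ucp3, a target of fatty acid signals, at 38.6, 25.6 and 43.8 FPKM against 54.4, 161 and 62.5 FPKM (log2 fold change 1.21, limma adjusted p 0.464, 0.210 to 0.732 over the other settings).

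Fiber-type genes differed in 1 myosin above all. Myh1, the type 2X heavy chain, was at 1033, 1336 and 1222 FPKM in sedentary and 2009, 1911 and 1361 FPKM in trained libraries, groups that did not overlap (log2 fold change 0.54, SE 0.176, limma adjusted p 0.464, 0.377 to 0.726 over the other settings). Myh4, the type 2B chain of the fastest fibers, was at 10520, 8442 and 9374 FPKM against 10750, 10100 and 10780 FPKM, and Myh2, the type 2A chain, at 165, 243 and 212 FPKM against 217, 209 and 217 FPKM. Both pairs of groups overlapped, the log2 fold changes being 0.16 and 0.07, and that of Myh2 was −0.08 without WT sedentary replicate 1. The heavy chain genes are similar in sequence, so reads may have been split between them. The slow chain Myh7 was at 1.85, 24.8 and 1.64 FPKM against 2.81, 49.99 and 1.14 FPKM, high in sedentary replicate 2 and trained replicate 2. The summed FPKM of 10 slow soleus-type genes was high in the same 2 libraries, 483 and 793, against 157 to 208 in the other 4, and the part of slow fibers or a neighboring muscle in these values was not tested. Of 17 fast-fiber genes 1 (Myh1) passed the unadjusted threshold, which 4.04% of all genes passed upward and 4.28% downward, and the median was 0.0046. Of 18 slow and type 2A genes, 2 were higher, Mybpc1 at 886, 1038 and 996 FPKM against 1050, 1189 and 1159 FPKM and Pln, the brake on the slow calcium pump, at 5.24, 3.31 and 3.56 FPKM against 4.98, 5.22 and 9.56 FPKM. That list's median was 0.16, and its sign turned with single libraries, to −0.29 without WT trained replicate 2 and −0.12 without WT sedentary replicate 1, and to −0.04 with library weights. In calcium handling and excitation, 4 of 30 genes were higher and 0 lower, the median was 0.05, and the fast calcium pump gene Atp2a1 was at 14270, 12900 and 13850 FPKM against 13090, 14340 and 13990 FPKM.

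Angiogenic genes differed little as a list. Of 28 listed, 27 were tested, 4 were higher and 2 lower at an unadjusted p under 0.05, against 4.04% and 4.28% of all genes, and the median was 0.04. Vegfa, the main angiogenic ligand of muscle, was at 142, 134 and 165 FPKM in sedentary and 137, 152 and 105 FPKM in trained libraries, and its groups overlapped (log2 fold change −0.17, limma adjusted p 0.775, 0.446 to 0.989 over the other settings). Among receptors, Flt1, VEGF receptor 1, was at 11.2, 10.6 and 11.7 FPKM against 12.4, 16.6 and 12.9 FPKM, and Notch4, an endothelial Notch receptor, at 3.32, 2.38 and 3.17 FPKM against 3.87, 5.16 and 3.50 FPKM, both wholly higher. Dll4, the Notch ligand of sprouting tip cells, was wholly lower, at 3.57, 2.995 and 3.39 FPKM against 2.55, 2.65 and 2.44 FPKM. The log2 fold changes were 0.30, 0.43 and −0.32 (limma adjusted p 0.528, 0.488 and 0.464). Egln3, an oxygen sensor, was at 12.5, 16.3 and 15.2 FPKM against 20.1, 28.4 and 18.6 FPKM, and Thbs1, an angiogenesis inhibitor of the matrix, at 2.35, 2.64 and 2.33 FPKM against 3.27, 3.42 and 3.55 FPKM, the log2 fold changes being 0.58 and 0.42 (limma adjusted p 0.537 and 0.402). The 20 endothelial markers were level, with a median of 0.00066, 1 higher and 1 lower, and a summed FPKM of 373 to 408 in sedentary and 366 to 417 in trained libraries. Of 21 neuromuscular junction genes tested, 1 was lower, Rapsn, which clusters acetylcholine receptors, at 12.8, 12.1 and 12.01 FPKM against 9.78, 10.6 and 10.46 FPKM (log2 fold change −0.25, limma adjusted p 0.492). The median of the junction list was −0.04 and turned to 0.03 when a mean of at least 5 FPKM was required.

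Immediate early genes respond to contraction soon after it, while by the study's methods the wheels had been removed days before the endpoint. Of 28 listed, 27 were in the table and 23 tested, 1 was higher and 5 lower at an unadjusted p under 0.05, and the median was −0.05. That threshold was passed by 4.04% of all genes upward and 4.28% downward, so the 1 higher member is near the background. The most abundant, Nr4a1, was at 91.6, 87.0 and 94.2 FPKM in sedentary and 109, 106 and 100.1 FPKM in trained libraries. Junb, an AP-1 subunit, was at 6.51, 5.28 and 7.01 FPKM against 4.62, 4.64 and 4.89 FPKM and Ier2 at 4.22, 5.79 and 4.53 FPKM against 3.57, 4.13 and 3.47 FPKM, both wholly lower. Nr4a2, an orphan nuclear receptor, was low in all trained libraries, at 0.746, 0.613 and 0.655 FPKM, but also in sedentary replicate 1, the sedentary values being 0.508, 3.06 and 3.77 FPKM. Its limma adjusted p was 0.518, and 0.00884 without that sedentary library. Klf6 was the 1 higher member, at 7.98, 6.39 and 8.01 FPKM against 12.6, 9.28 and 9.80 FPKM (log2 fold change 0.47, limma adjusted p 0.426).

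Clock genes were split evenly, with 3 of 22 tested higher and 3 lower at an unadjusted p under 0.05 and a median of 0.0090. Over all genes 4.04% were higher and 4.28% lower at that threshold. The higher clock genes were Per1, given above, Nfil3 and Nr1d2. Nfil3, a repressor at D-boxes, was at 8.15, 10.1 and 9.59 FPKM in sedentary and 9.85, 25.98 and 13.6 FPKM in trained libraries, with trained replicate 1 inside the sedentary range. Nr1d2, a REV-ERB repressor, was at 26, 23.9 and 28.9 FPKM against 28.4, 33.4 and 29.9 FPKM. The lower clock genes were Dbp, Per3 and Bhlhe41. Dbp, an activator at D-boxes and so the counterpart of Nfil3, was at 103, 95.4 and 103 FPKM against 90.4, 83.1 and 88.2 FPKM. Per3 was at 10.6, 9.24 and 10.8 FPKM against 8.62, 7.55 and 9.08 FPKM, and Bhlhe41 at 19.6, 19.5 and 20.8 FPKM against 17.5, 12.4 and 17.5 FPKM. The groups did not overlap in any of the lower 3, the log2 fold changes being −0.21, −0.27 and −0.34 (limma adjusted p 0.492, 0.537 and 0.489). Per the study's methods tissue was collected in the early afternoon, and the hour of each library was not used here.

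Interferon-responsive genes lay below 0 more often than above. In the interferon list 25 of 29 genes were tested, 17 had a log2 fold change below 0, 6 were wholly lower and 1 wholly higher, and the median was −0.18. At an unadjusted p under 0.05, 2 were lower and 1 higher, beside 4.28% and 4.04% of all genes, so these 2 counts are near the background. Among all genes 6.5% were wholly lower and 7.76% wholly higher. B2m, the light chain of MHC class I, was at 131, 153 and 127 FPKM in sedentary and 118, 118 and 102 FPKM in trained libraries (log2 fold change −0.27, limma adjusted p 0.485, 0.264 to 0.768 over the other settings). H2-K1, a class I heavy chain outside the list, was at 96.3, 97.3 and 85.6 FPKM against 76.6, 61.6 and 62.0 FPKM (log2 fold change −0.48, limma adjusted p 0.286, 0.0364 to 0.606 over the other settings), although related H2 genes can share its reads. Bcl3, an atypical IkB protein, was at 0.939, 1.3 and 1.42 FPKM against 0.569, 0.496 and 0.310 FPKM, and its groups did not overlap, like those of Nfkbia and Birc3, which also act around NF-kB. The 12 macrophage markers were level, with a median of −0.02, and only 1 of 12 lymphocyte and neutrophil markers reached the level for testing. The summed FPKM of the macrophage markers was 71.7 to 86.5 in sedentary and 70.4 to 85.5 in trained libraries.

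Transcripts of other cell types moved with the groups in a few cases. All 10 tested Schwann cell markers, of 12 listed, were below 0, 4 at an unadjusted p under 0.05 and 4 wholly lower, with a median of −0.37. The shares over all genes were 4.28% lower at that threshold and 6.5% wholly lower. The summed Schwann list was 117 to 167 FPKM against 85.3 to 112 FPKM. Hemoglobin transcripts were lower too, Hba-a1 at 162, 352 and 264 FPKM against 141, 152 and 153 FPKM, and of 7 blood genes tested 1 was lower at an unadjusted p under 0.05 and 2 were wholly lower, with a median of −0.57. That median was −0.28 without WT sedentary replicate 2 and −0.85 without WT sedentary replicate 1. The summed FPKM of the 8 listed blood genes was 812 to 1867 in sedentary and 776 to 917 in trained libraries. The paired alpha globin genes are nearly identical, so their separate levels are uncertain. Of 10 adipocyte markers 8 were tested, 1 was higher and 1 lower at an unadjusted p under 0.05, and the median was 0.56, or 0.29 without WT trained replicate 3. With a mean of at least 5 FPKM required it was 0.05. Cfd, the adipokine adipsin, was at 16.8, 19.2 and 7.83 FPKM against 27.4, 29.2 and 55.4 FPKM, while Fabp4 was at 167, 189 and 159 FPKM against 188, 171 and 172 FPKM. Adipoq, adiponectin, was at 3.23, 1.72 and 0.791 FPKM against 1.73, 2.66 and 7.71 FPKM, highest in trained replicate 3. The part of nerve, blood or fat in the muscle pieces was not tested.

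The remaining lists each held at most 5 members past the unadjusted threshold in 1 direction. Of all genes 4.04% passed it upward and 4.28% downward. Growth control and myokine genes had 5 higher and 0 lower of 24 tested, with a median of 0.07. Beside Smad3, Ccn2 and Sparc these were Fndc5, the precursor of irisin, at 16.7, 19.1 and 18.5 FPKM against 22.8, 23.7 and 20.1 FPKM, and Mss51, at 8.59, 16.7 and 4.24 FPKM against 11.6, 18.3 and 39.4 FPKM with overlap. Mstn, for the growth inhibitor myostatin, was at 19.5, 17.7 and 17.0 FPKM against 17.9, 20.9 and 24.0 FPKM. Antioxidant genes were below 0 in 21 of 28, with 1 higher (Ucp3) and 2 lower, Gstm1 at 163, 159 and 167 FPKM against 133, 130.1 and 141 FPKM and Nqo1 at 10.7, 11.3 and 11.1 FPKM against 9.74, 6.85 and 9.33 FPKM. Of the 28, 6 were wholly lower and 2 wholly higher, beside 6.5% and 7.76% of all genes. Atrophy and autophagy genes had 1 higher of 22, the ubiquitin ligase gene Fbxo30 at 2.28, 2.37 and 2.48 FPKM against 3.58, 3.01 and 3.15 FPKM, and 1 lower, the autophagy receptor gene Sqstm1 at 329, 319 and 330.3 FPKM against 269, 276 and 308 FPKM. Of these 22, 4 were wholly lower and 2 wholly higher. In the polyamine and stretch list, Odc1, the first enzyme of polyamine synthesis, was at 41.3, 45.6 and 37.9 FPKM against 61.2, 56.7 and 53.3 FPKM and Sms, spermine synthase, at 42.5, 43.9 and 40.3 FPKM against 50.2, 47.4 and 56.2 FPKM. Each of these 2 was wholly higher. Heat shock genes had 0 higher and 1 lower of 28, ER stress genes 0 and 1 of 21, myogenic genes 0 and 1 of 17, smooth muscle and pericyte markers 0 and 1 of 10, and cell cycle genes 0 and 0 of 10. The log2 medians of these lists lay between −0.04 and 0.03. The 5 tested genes known to differ between C57BL/6 substrains showed 0 in either direction, with a median of 0.05.

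Liver transcripts were present in every muscle library and were lower in trained muscle. Of 25 hepatocyte genes, a list chosen after its values were seen, 24 were lower at an unadjusted p under 0.05 and all 25 were below 0. The median was −1.22 and 8 were wholly lower. Over all genes 4.28% were lower at that threshold and 6.5% wholly lower. Alb, serum albumin, was at 195, 180 and 327 FPKM in sedentary and 220.4, 44.6 and 60.5 FPKM in trained libraries, and Apoa1, a plasma apolipoprotein, at 53.8, 48.5 and 71.1 FPKM against 39.0, 17.7 and 22.4 FPKM. Hnf4a, a hepatocyte transcription factor, was at 1.31, 1.14 and 1.70 FPKM against 0.850, 0.403 and 0.416 FPKM. The summed list was 736, 676 and 1154 FPKM against 742, 187 and 273 FPKM, so trained replicate 1 was at the sedentary level for most of these genes. Over the 12 libraries 145 tested genes had a Pearson correlation of at least 0.9 with Alb, and 105 of them were among the 546 lower genes, 19.2% of that set. Among the 30 genes that passed without WT trained replicate 1, 22 were lower, and 6 of the 30 were in the hepatocyte list. The source of the liver RNA was not tested.

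**Figure D4:**
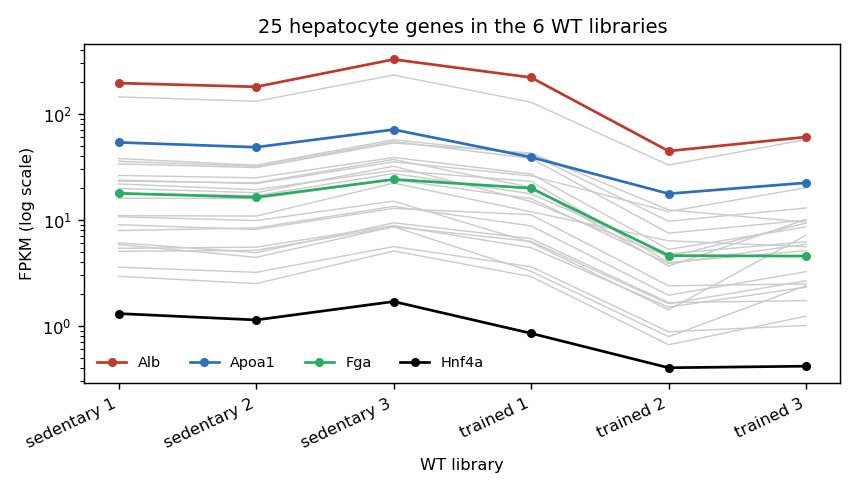
FPKM on a log scale of 25 hepatocyte genes in the 6 WT libraries, each line joining the values of 1 gene and 4 genes colored. All 25 genes lie below their lowest sedentary value in trained replicates 2 and 3, where Alb is at 44.6 and 60.5 FPKM, while trained replicate 1 has Alb at 220.4 FPKM.

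The response to running in WT muscle was set beside that in libraries labelled strNrip1-/-, which share no library with it. There too 0 genes passed the adjusted threshold (0%), and 1544 had an unadjusted p under 0.05 (12.1%), 867 higher (6.8%) and 677 lower (5.31%). The interaction of training and labelled genotype had 0 genes with an adjusted p under 0.05 by limma and 989 at an unadjusted p under 0.05 (7.76%). Of the 1061 WT genes at an unadjusted p under 0.05, 677 (63.8%) had the same sign in the other genotype, where 52.9% of all genes did. The share was 62.3% of the higher and 65.2% of the lower genes, beside 51.9% and 48.1% of all genes with that sign. Without the genes that followed Alb, 59.8% of 956 genes and 56.9% of the 441 lower genes had the same sign. Those genes were picked over all 12 libraries, so the values of both genotypes entered the choice and a lower share was to be expected. At an unadjusted p under 0.05 in both genotypes, 249 genes had the same sign and 61 the opposite one. Genes that followed Alb were not removed from these counts, and 24 of 25 hepatocyte genes were lower at that threshold in each genotype. The 249 are 23.5% of the WT set and 16.1% of the other set.

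**Figure D5:**
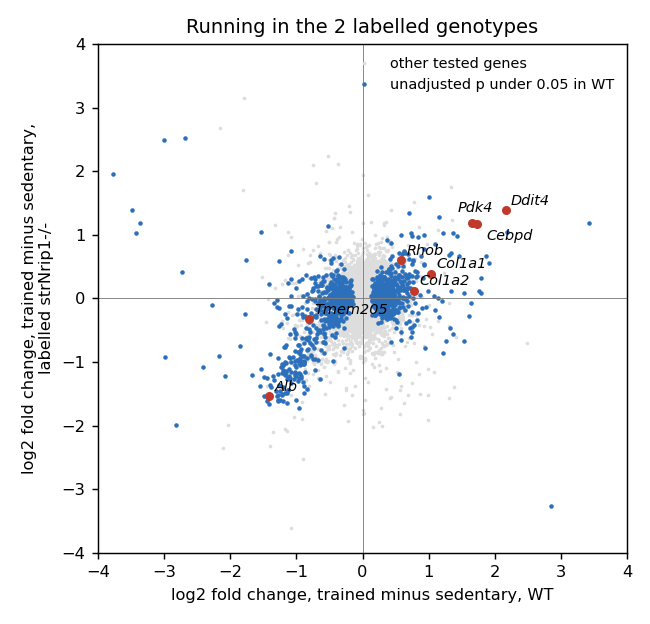
Log2 fold change of running (trained minus sedentary) in WT libraries on the horizontal axis and in libraries labelled strNrip1-/- on the vertical axis, 1 point per tested gene, blue where the unadjusted p was under 0.05 in WT, and 8 named genes in red. Ddit4, Cebpd, Pdk4 and Rhob lie in the upper right, Col1a1 and Col1a2 nearer the horizontal axis, and Alb at the lower left, and 3 genes lie outside the axes.

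The values of the leading genes stood as follows in the 2 labelled genotypes. Ddit4 had a log2 fold change of 2.16 in WT and 1.39 in labelled strNrip1-/- muscle, where it was at 8.92, 8.53 and 15.7 FPKM in sedentary and 35.9, 28.3 and 23.1 FPKM in trained libraries. Cebpd had 1.73 and 1.17, Rhob 0.59 and 0.60, Pdk4 1.66 and 1.19, and Lpl 0.44 and 0.67. Col1a1 had 1.04 and 0.39, and Col1a2 0.78 and 0.12, the latter from 106, 123 and 121 to 145, 126 and 112 FPKM. Kera had 0.74 and −0.21. The limma adjusted p of the interaction was 0.550 for Col1a1, 0.437 for Col1a2 and 0.335 for Kera, so none of these differences between genotypes passed the threshold. Over the lists, the matrix median was 0.22 in WT and −0.05 in labelled strNrip1-/- muscle, the glucocorticoid median 0.56 and 0.35, the fatty acid oxidation median 0.11 and 0.21, the lipid uptake and storage median 0.20 and 0.30, and the Schwann cell median −0.37 and 0.20. The mitochondrial genome median was 0.08 and −0.34, and in the labelled strNrip1-/- libraries 10 of its 13 genes were lower at an unadjusted p under 0.05. Myh2 had 0.07 in WT and 0.76 in the other genotype, and Ppargc1a 0.38 and −0.09, with interaction adjusted p of 0.536 and 0.605 by limma. The hepatocyte median was −1.22 and −1.27. Major urinary protein genes, which are nearly identical and lie outside that list, did not all move alike in the 2 labelled genotypes. Mup7 had −4.32 and 0.61, Mup15 −2.69 and 2.52, and Mup18 −3.00 and 2.49, while Mup17 had −2.42 and −1.07 and Mup22 −2.99 and −0.92. The limma adjusted p of the interaction was 0.579 for Mup7, 0.451 for Mup15 and 0.511 for Mup18.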

How the data were processed

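DNase-treated total RNA of EDL muscle was prepared with the NEBNext Ultra kit, which is not stranded, so reads of antisense overlaps are not separable. Per the labels and the study's methods, the authors quantified reads with Salmon 1.10.2 on mm10, summed them to genes with tximport and used DESeq2 1.44.0. Expression was deposited as FPKM, already on 1 scale between libraries. The authors also deposited log2 fold changes and adjusted p-values for 4 comparisons, which were not used. The annotation release and the function that gave FPKM are not given in the sources used here.

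Of 17752 identifiers, 17745 matched GENCODE M21 (GRCm38), from which coordinates were taken. Depth was estimated from low FPKM values of 1619 genes with 1 transcript over 1500 nt, of which 99.1% or more lay within 0.15 of whole fragments in each library, beside 30% by chance. Values were taken as log2(FPKM + 0.5), which understates the change of low genes. Groups and replicate numbers came from the sample titles. Genes averaging 0.5 FPKM or more were fitted with limma 3.58.1 (R 4.3.3), 4 group means and a trended variance prior, two-sided, with Benjamini-Hochberg adjustment. A gene was called at an adjusted p under 0.05 and a fold change above 1.2. The script was tested on simulated data. Medians and counts of lists carry no test.

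Genes to be named were the called genes of largest change, the 2 most abundant members of each list without calls, Nrip1, and Ppargc1a, Vegfa, Myh1, Myh2, Myh4, Myh7, Cpt1b, Pdk4, Hk2, Slc2a4, Cs, Cycs, Tfam and Mstn. With 0 calls, other genes were chosen after their values were seen. A few genes, members of lists among them, are not reported here. The comparison and its lists were chosen with earlier results of these data known. Other settings were pseudocounts of 0.1 and 1, no filter, a mean of at least 5 FPKM, only the 6 WT libraries, quantile normalization, equal sums with and without mitochondrial genes, a replicate block, library weights, no variance trend and leaving out each library. Counts at an unadjusted p under 0.05, the same-sign share over those genes and the hepatocyte list were added after the data were seen. Replicate pairs held 0 identical values above 0.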

Additional observations from a re-analysis of the deposited data

How the results depend on the processing

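The count of genes passing the adjusted threshold was 0 with pseudocounts of 0.1 and 1, with no filter on low values, with only the 6 WT libraries, without the variance trend and with the adjusted p alone. It was 8 with a mean of at least 5 FPKM, 4 with quantile normalization, 1 with the same FPKM sum, 2 with the same sum over nuclear genes and 11 with library weights. Leaving out 1 library gave 0 to 30. The 4 genes without WT trained replicate 3 were Col1a1 and the major urinary protein genes Mup3, Mup7 and Mup22, which are nearly identical and so uncertain. Genes at an unadjusted p under 0.05 numbered 511 with a mean of at least 5 FPKM, among 6849 tested, and 792 to 1144 leaving out 1 library. Deviations from the group means correlated at −0.0173, 0.195 and 0.0482 between libraries of the same replicate number, 1, 2 and 3. The value for number 2 was the highest of all pairs. With 3 libraries a group these deviations sum to 0, so the check cannot tell whether the numbers pair the samples. With the replicate block 4 genes passed (Col1a1, Gm38158, Myo9b and Rhob), and 0 genes passed the interaction. Not every sample correlated best with its own number.

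Of the list medians, 599 values under other settings moved by less than the spread between replicates and 24 by more. With a mean of at least 5 FPKM the medians were 0.0266 for the neuromuscular junction, −0.0697 for the clock, 0.0183 for atrophy and autophagy, 0.20 for growth control and myokines and 0.0503 for adipocytes. With the same FPKM sum they were 0.0302 for endurance regulators, −0.0333 for the clock and 0.0050 for calcium handling. Leaving out 1 library, the medians ran from 0.16 to 0.25 for lipid uptake and storage, 0.32 to 0.83 for the glucocorticoid list, 0.0147 to 0.16 for growth control and myokines, −0.0443 to 0.0278 for myogenic genes, 0.0054 to 0.0487 for calcium handling, −0.14 to −0.0432 for antioxidant genes, −0.23 to −0.0831 for interferon genes, −0.0554 to 0.10 for the polyamine and stretch list, −0.15 to 0.0148 for smooth muscle markers, −0.29 to 0.38 for slow and type 2A genes, −0.50 to 0.62 for slow soleus-type genes, 0.14 to 0.30 for the matrix, 0.04 to 0.17 for fatty acid oxidation, −0.16 to 0.0321 for nuclear OXPHOS, 0.0147 to 0.16 for the mitochondrial genome, 0.08 to 0.29 for fibroblasts, 0.29 to 0.80 for adipocytes, −0.85 to −0.28 for red blood cells and −0.0196 to 0.0827 for substrain genes. Signs of named genes turned for Myh2 (−0.0836 without WT sedentary replicate 1), Myh7 (−0.25 with library weights, −0.18 without WT sedentary replicate 1, −0.25 without WT sedentary replicate 3 and −1.11 without WT trained replicate 2), Nrip1 (−0.0713 without WT sedentary replicate 2 and −0.11 without WT trained replicate 2), Slc2a4 (−0.0073) and Cycs (−0.0382), both without WT trained replicate 2, and Tfam (−0.0139 with the same FPKM sum). The highest values of these genes leaving out 1 library were 1.53 for Myh7, 0.29 for Nrip1, 0.0917 for Slc2a4 and 0.23 for Cycs. No other named gene with a fold change changed its sign. The cause of these changes was not tested. With 16.6 to 24.2 fragments behind a level of 0.5 FPKM for a 2 kb gene, counting error weighs most on genes of low level.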

Other observations

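Several genes outside the lists had trained and sedentary WT libraries wholly apart and were chosen after their values were seen. Tspan11, a tetraspanin gene, was at 0.229, 0.336 and 0.266 FPKM in sedentary and 1.86, 1.78 and 2.14 FPKM in trained libraries. Gadd45g, a stress-induced growth arrest gene, was at 97.5, 74.5 and 57.6 FPKM against 169, 173 and 219.6 FPKM, and Depp1, a target of FoxO factors, at 4.15, 3.16 and 3.27 FPKM against 8.66, 9.26 and 11.9 FPKM. Amhr2, the receptor of anti-Müllerian hormone, was lower, at 2.93, 2.38 and 3.82 FPKM against 0.874, 0.247 and 1.19 FPKM. In libraries labelled strNrip1-/-, Amhr2 was at 0.670, 0.853 and 0.347 FPKM when sedentary and 1.48, 1.36 and 2.74 FPKM when trained, so that the difference there had the opposite sign (interaction adjusted p 0.335 by limma, not past the threshold).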
